A study of Arabidopsis thaliana with 9 samples.

Results

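The subject here is the set of nuclear genes that encode the light-harvesting antenna, the nuclear subunits of the photosystems and the nuclear part of Rubisco in Arabidopsis thaliana. The set has 46 members among the 32678 gene rows counted in each library. It was drawn up by gene family, with earlier results of these data known. It does not hold every nuclear photosystem gene: PSAO, PSBTN and PSBS, for example, are counted in a separate electron transport list. There are 15 LHCB genes of the photosystem II antenna, 6 LHCA genes of the photosystem I antenna, 5 Rubisco genes (4 small-subunit RBCS genes and RCA), 11 PSA genes of photosystem I and 9 PSB genes of photosystem II. All 46 locus identifiers matched a nuclear gene in RefSeq, all 46 had counts in every library and all 46 passed the filter on low counts.

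Photosystem II and photosystem I sit in the thylakoid membrane of the chloroplast and use light to drive electrons from water towards NADP. LHCB and LHCA proteins bind chlorophyll and pass absorbed energy to the reaction centres, while Rubisco fixes carbon dioxide in the stroma. The chloroplast genome encodes the reaction-centre cores and the large Rubisco subunit, and the nucleus supplies the proteins whose messages are counted here. In seedlings these nuclear genes are known to be induced by light and to be controlled by the state of the chloroplast.

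RNA was sequenced from whole 7-day-old seedlings in 3 groups of 3 libraries. The groups were wild type in 10 mM KCl, wild type in 10 mM KNO3 and the mutant icpk in 10 mM KNO3, and each treatment lasted 15 min. The labels describe icpk as an inducible triple mutant of CPK10, CPK30 and CPK32, which are calcium-dependent protein kinases, and it expresses the tagged variant CPK10(M141G)-DHA. The M141G form can be blocked by the small molecule 3MBiP, and the protocol describes 2 min in 10 µM of it before the salt without saying which samples were given it. All seedlings had grown in constant light at 23 °C on a shaker with 2.5 mM ammonium succinate as the only nitrogen source and 0.5% sucrose. About 10 seedlings were pooled per sample, and how many icpk lines were used is not given in the labels. The 9 libraries include no icpk seedlings in KCl. A difference of icpk from wild type in KNO3 therefore cannot be told apart from a genotype difference present without nitrate. No label says that the replicates were separate cultures, so p-values measure the spread among these libraries only, and part of it may be technical.

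The libraries held 5987352 to 19564785 counts assigned to genes, and between 23.8% and 80.5% of all records fell in the class mapped to more than 1 place. Replicate 3 of wild type in KCl stood apart, with 80.5% in that class and 4.89% of its gene counts on organelle-genome genes against 0.351% to 1.55% in the others. Levels are given as CPM, counts relative to the library total, after scaling by the trimmed mean of M values (TMM), fold changes as log2 ± standard error, and n is 3 libraries in each group throughout. A gene is said to have risen or fallen where edgeR's quasi-likelihood test, adjusted by Benjamini-Hochberg over 20288 genes, gave a value below 0.05. CPK30 and CPK32 were low in every icpk library: CPK30 was at 26.5, 28.7 and 27.4 CPM in wild type in KNO3 and at 3.74, 3.6 and 2.84 CPM in icpk (-3.02 ± 0.13, adjusted p = 5.19e-06), and CPK32 differed by -3.27 ± 0.23 (adjusted p = 6.42e-05). CPK10 was higher in icpk, by 0.83 ± 0.12 (adjusted p = 0.00147).

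Several members are near-identical copies, and the sequences of the closest trios are shown because they set which reads could be assigned. LHCB1.2, LHCB1.1 and LHCB1.3 lie on chromosome 1 between 10472280 and 10479114, and RBCS3B, RBCS2B and RBCS1B lie on chromosome 5 between 15376988 and 15385320 (RefSeq, TAIR10.1). Bases 25 to 84 of the LHCB1 coding sequences hold 8 positions at which the 3 copies are not all alike, and these positions are in capitals.
LHCB1.1: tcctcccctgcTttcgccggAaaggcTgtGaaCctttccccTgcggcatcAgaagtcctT
LHCB1.2: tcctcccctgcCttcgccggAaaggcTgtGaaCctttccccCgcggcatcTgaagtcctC
LHCB1.3: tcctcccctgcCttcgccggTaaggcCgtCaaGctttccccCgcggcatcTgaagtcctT
Bases 640 to 699 had no such position, so that a read of 50 bases from that stretch could have come from any of the 3.
LHCB1.1, LHCB1.2 and LHCB1.3: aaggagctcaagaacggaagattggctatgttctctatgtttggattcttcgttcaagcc
Over the whole coding sequence of 804 bases the LHCB1 copies were 95.65% to 96.39% identical.

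The chromosome 5 RBCS genes were as close, with 96.7% to 97.25% identity over 546 coding bases. Bases 91 to 150 again hold 8 positions in capitals at which the copies are not all alike.
RBCS1B: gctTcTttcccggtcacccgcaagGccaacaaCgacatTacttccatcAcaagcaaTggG
RBCS2B: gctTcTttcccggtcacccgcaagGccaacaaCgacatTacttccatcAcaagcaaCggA
RBCS3B: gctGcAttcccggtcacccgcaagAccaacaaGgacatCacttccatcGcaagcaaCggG
Bases 361 to 420 were the same in all 3 copies.
RBCS1B, RBCS2B and RBCS3B: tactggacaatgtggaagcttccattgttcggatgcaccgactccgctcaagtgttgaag
Of the 50-base windows of each transcript, 67.4% were found nowhere else in the genome or the annotated transcripts for RBCS1B, 78.6% for RBCS2B and 81.6% for RBCS3B, against 98.5% for RBCS1A on chromosome 1. The unique share was 79.5% for LHCB1.1, 89.3% for LHCB1.2, 83% for LHCB1.3 and 71.9% for LHCB2.2. In all, 34 members had only unique windows and 12 shared some with another gene. Levels of those 12 are understated by an amount that differs by copy, since reads placed in more than 1 location were left out of the gene counts. Their split between copies rests on the reads that could be placed. The kit does not mark strand, so reads shared with an overlapping gene cannot be told apart either. More than 10% of the transcript lay in an overlapping gene for 6 members, with PSAG at 58.8% and PSAH1 at 49.2% the highest.

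The stretches upstream of the members were searched for short motifs because the members moved together across the libraries. The start used was that of the annotated transcript beginning nearest the start codon, so a window can reach into a longer annotated transcript. In the 250 bases before that start, on either strand, the G-box CACGTG was present for 12 of 46 members (26.1%) against 6.68% of 27443 genes. The I-box GATAAG was present for 13 of 46 (28.3%) against 12.5% of genes, and CCAATC, a motif known to be bound by the GLK transcription factors, for 13 of 46 (28.3%) against 10.4%. CCAATC was upstream of 7 of 15 LHCB and 3 of 6 LHCA genes and of 0 of 11 PSA genes. The evening element AAAATATCT was upstream of 0 of 46 members and 2.35% of genes. These matches are letters in a window and are no measure of binding. Among the 9 members that rose in icpk (described further on), 2 had a G-box, 2 an I-box and 1 a CCAATC, and the other 37 members held 10, 11 and 12. For PSBQ1 and RBCS1B, among those 9, the last 50 and 73 bases of the window lie in a longer transcript. The CCAATC of PSBQ1 lies there, and the I-box matches of both lie in those bases or reach into them.

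Upstream sequences are shown for the most abundant LHCB gene, the most abundant LHCA gene and the RBCS copy that did not follow the others, with motif matches in capitals on the gene's own strand (RefSeq, TAIR10.1). They are LHCB1.3 at chr1:10477635-10477884 on the plus strand, LHCA4 at chr3:17495034-17495283 on the minus strand and RBCS2B at chr5:15382072-15382321 on the minus strand.
LHCB1.3: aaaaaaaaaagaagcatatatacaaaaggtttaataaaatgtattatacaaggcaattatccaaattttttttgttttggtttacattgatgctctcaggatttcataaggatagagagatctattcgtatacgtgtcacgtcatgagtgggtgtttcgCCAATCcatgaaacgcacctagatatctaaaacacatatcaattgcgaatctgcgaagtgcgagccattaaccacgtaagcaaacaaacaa
LHCA4: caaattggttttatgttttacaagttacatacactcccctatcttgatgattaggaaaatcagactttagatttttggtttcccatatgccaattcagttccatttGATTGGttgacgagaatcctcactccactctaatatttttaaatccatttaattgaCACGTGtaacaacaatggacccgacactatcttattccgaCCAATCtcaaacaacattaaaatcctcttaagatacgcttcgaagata
RBCS2B: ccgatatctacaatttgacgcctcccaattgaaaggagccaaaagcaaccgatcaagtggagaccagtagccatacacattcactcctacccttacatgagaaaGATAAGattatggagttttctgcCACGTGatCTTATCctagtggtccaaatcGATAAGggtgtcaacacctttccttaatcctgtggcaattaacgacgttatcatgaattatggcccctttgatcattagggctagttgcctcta
LHCB1.3 has 1 CCAATC. LHCA4 has a G-box between 2 matches to CCAATC, 1 of them read on the other strand as GATTGG. RBCS2B has a G-box and 3 I-box matches, 1 of them read as CTTATC. No CCAATC lies in the RBCS2B window.

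The members took a large part of the messages counted in these seedlings. Their summed share of gene counts was 9.41%, 10.5% and 8.51% in wild type in KCl, 7.13%, 8.08% and 6.04% in wild type in KNO3, and 9.65%, 7.93% and 11.0% in icpk in KNO3. Every wild-type library in KNO3 was below every wild-type library in KCl, and the icpk range overlapped both wild-type ranges. LHCB genes gave 3.12% to 3.97% of counts in KCl, 2.04% to 2.65% in wild type in KNO3 and 2.59% to 4.08% in icpk. The Rubisco genes gave 2.33% to 2.77%, 1.58% to 2.46% and 2.35% to 3.00% in the same order.

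**Figure D1:**
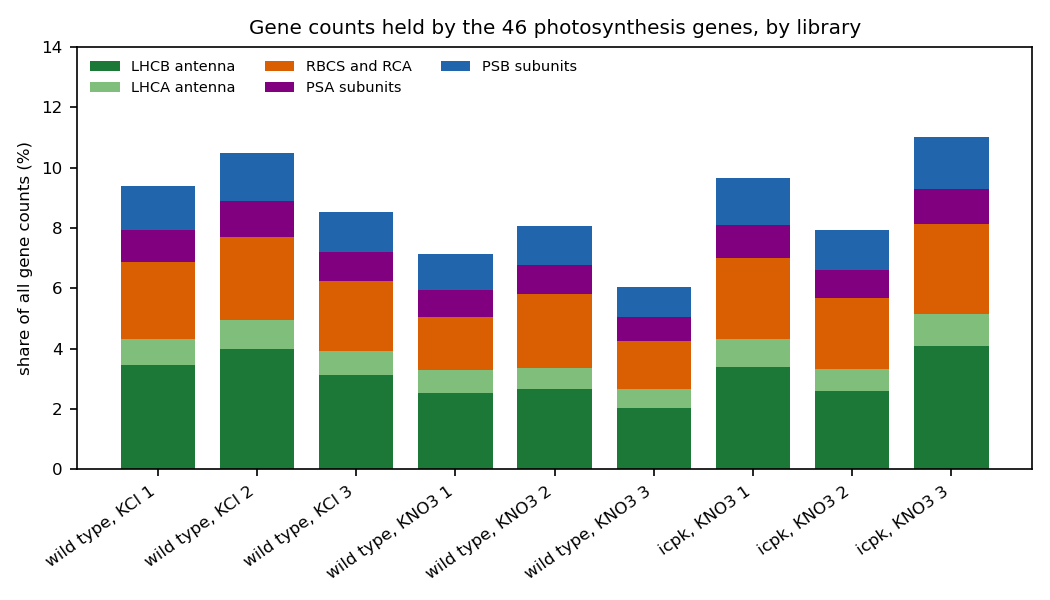
Share of gene counts (percent, vertical axis) taken by each of the 5 roles in each of the 9 libraries, stacked to the total of the 46 genes. The totals run from 6.04% in replicate 3 of wild type in KNO3 to 11.0% in replicate 3 of icpk.

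Compared per kilobase of transcript, the level in wild type in KCl spanned a wide range within each role. RBCS1A, the main small-subunit gene, was the highest at 11900 ± 690 CPM per kb (SD), followed by LHCB1.3, a trimeric antenna gene, at 8960 ± 1490 CPM per kb and LHCB1.5 at 4300 ± 146 CPM per kb. LHCB7 was the lowest at 9.06 ± 0.329 CPM per kb, and LHCB4.3 was next at 28.2 CPM per kb. Among LHCA genes the range ran from LHCA6 at 54.9 to LHCA4 at 2240 CPM per kb, among PSA genes from PSAH1 at 227 to PSAG at 2110, and among PSB genes from PSBO2 at 742 to PSBR at 3050. Between groups of whole seedlings, a lower level of a gene cannot be told apart into fewer green cells and less of the message per cell.

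The first comparison asked how the members stood after 15 min of nitrate in wild type. They were lower by a modest amount almost throughout: 45 of 46 had a negative fold change and the median was -0.45, against -0.02 over all genes tested. For 38 of 46 all 3 KNO3 libraries lay below all 3 KCl libraries, which held for 14.1% of all genes. Few of these differences passed the test across the genome. LHCB1.2 fell and no member rose: 1 of 46 is 2.17%, close to the 2.39% of all genes that fell, and 3.56% of all genes rose. DESeq2 called 12 members lower and 0 higher, where it called 3.99% of all genes lower and 4.63% higher. At an unadjusted p below 0.05 there were 27 members, all lower, against 12.1% of all genes lower at that level. Standard errors of single members ran from 0.127 to 0.381, with a median of 0.198.

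**Figure D2:**
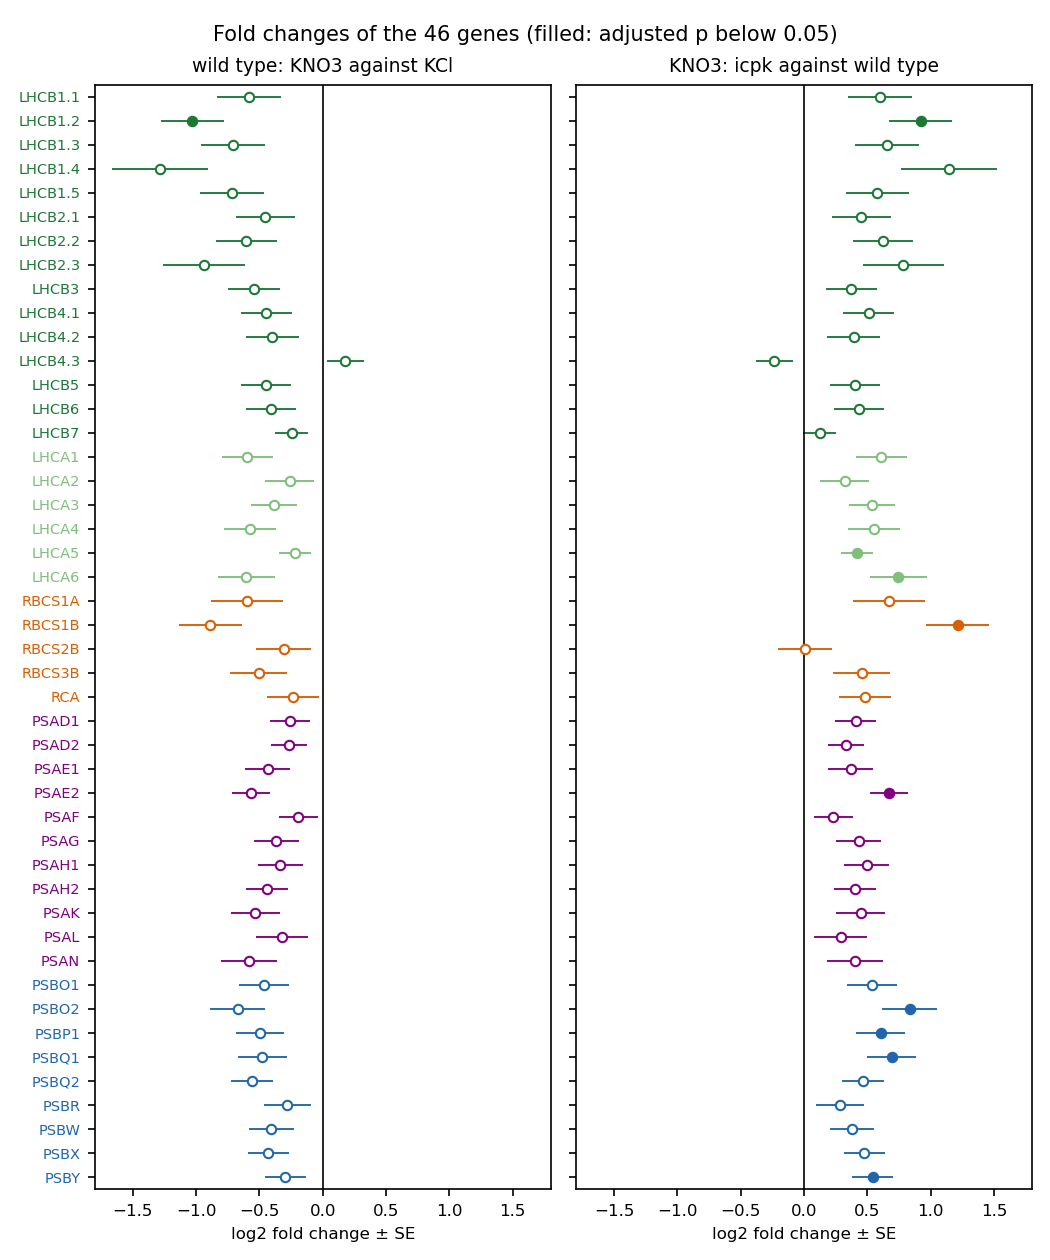
Log2 fold change (horizontal axis) of each of the 46 genes for wild type KNO3 against wild type KCl and for icpk KNO3 against wild type KNO3, with bars of 1 standard error and filled symbols where the adjusted p is below 0.05. In the first comparison 45 of 46 genes lie below 0 with 1 filled, and in the second 45 of 46 lie above 0 with 9 filled; both use the same wild-type KNO3 libraries.

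The LHCB genes, which encode the trimeric and minor antenna proteins of photosystem II, had a median of -0.54 and 14 of 15 had libraries that did not overlap. LHCB1.2 (AT1G29910) was at 2791, 3121 and 2752 CPM in KCl and at 1599, 1674 and 966 CPM in KNO3. Its KNO3 libraries all lay well below the KCl libraries, and it fell by 1.03 ± 0.25 on the log2 scale (adjusted p = 0.0361), to 0.489 of the KCl level. LHCB1.3 (AT1G29930), the most abundant antenna message, was at 9765, 13119 and 10185 CPM in KCl and at 6314, 7811 and 6097 CPM in KNO3. Its groups did not overlap either, with a fold change of -0.71 ± 0.25 that missed the threshold (adjusted p = 0.133).

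LHCB1.4 (AT2G34430) had the most negative fold change of all members, -1.28 ± 0.38 (adjusted p = 0.0777). It stood at 1101, 1848 and 1271 CPM in KCl and at 574, 837 and 323 CPM in KNO3, with replicate 3 far below the others. LHCB2.3 differed by -0.94 ± 0.32 (adjusted p = 0.121), and 38.6% of its transcript lies in an overlapping gene. The minor antenna gene LHCB5 was at 3142 ± 372 CPM in KCl and 2303 ± 239 CPM in KNO3. The exception was LHCB4.3 (AT2G40100), a copy of the minor antenna protein CP29, with 38.6, 34.7 and 38.3 CPM in KCl and 35.8, 47.5 and 42.7 CPM in KNO3. Its groups overlapped and its fold change was the only positive value of the set, 0.18 ± 0.15 (adjusted p = 0.544). The other 8 LHCB genes apart from LHCB7 had fold changes from -0.72 for LHCB1.5 to -0.40 for LHCB4.2. None of them overlapped between the groups: LHCB3, for example, was at 2315, 2667 and 2338 CPM in KCl and at 1836, 1834 and 1350.2 CPM in KNO3. LHCB7 was at 10.5, 11.3 and 11.2 CPM and then at 10.3, 9.75 and 7.72 CPM (-0.25 ± 0.13, adjusted p = 0.324).

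Among the LHCA genes of the photosystem I antenna the median was -0.48 and 4 of 6 had libraries that did not overlap. LHCA4 (AT3G47470) was at 2645, 3242 and 2806 CPM in KCl and at 2190.2, 2077 and 1572 CPM in KNO3 (-0.57 ± 0.21, adjusted p = 0.136). No KNO3 library reached the lowest KCl library. LHCA1 differed by -0.60 ± 0.20 (adjusted p = 0.121), LHCA3 by -0.38 ± 0.18 (adjusted p = 0.261) and LHCA2 by -0.26 ± 0.19 (adjusted p = 0.482), all without overlap. LHCA5 and LHCA6, at -0.22 ± 0.13 and -0.60 ± 0.22, overlapped through replicate 2 in KNO3.

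For Rubisco the median was -0.51, 3 of 5 genes had libraries that did not overlap, and the KNO3 libraries were spread widely. RBCS1A (AT1G67090) was at 14454, 16087 and 14724 CPM in KCl and at 8563, 14068 and 7263 CPM in KNO3, so replicate 2 in KNO3 lay just under the KCl range and the other libraries far below it (-0.60 ± 0.28, adjusted p = 0.256). RBCS1B (AT5G38430) was at 560.2, 801 and 640.0 CPM and then at 277, 523 and 281 CPM, with the same replicate nearest to KCl (-0.89 ± 0.25, adjusted p = 0.0633). RBCS2B (AT5G38420) overlapped between the groups, at 939.9, 1410.3 and 1028 CPM and then 735, 1161 and 831 CPM (-0.31 ± 0.22, adjusted p = 0.459). RBCS3B was at 3976, 4744 and 4326 CPM and then 2782, 3831 and 2579 CPM, without overlap (-0.51 ± 0.22, adjusted p = 0.225). RCA (AT2G39730), which encodes the chaperone that frees inhibited Rubisco sites, differed by -0.23 ± 0.21 (adjusted p = 0.575).

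All 11 PSA genes had libraries that did not overlap, with a median of -0.37 and 0 that passed the test. PSAE2 (AT2G20260), a stromal photosystem I subunit on the ferredoxin side, came nearest: it was at 254, 303 and 268 CPM in KCl and at 196, 204 and 156 CPM in KNO3 (-0.57 ± 0.15, adjusted p = 0.051). PSAG (AT1G55670), the highest PSA gene per kilobase, was at 1599, 1776 and 1558 CPM and then at 1159, 1532 and 1138 CPM, just short of overlap (-0.37 ± 0.18, adjusted p = 0.271). PSAF (AT1G31330), which helps to dock plastocyanin, had the fold change nearest 0 among PSA genes, -0.19 ± 0.15 (adjusted p = 0.526), at 1708, 2084 and 1702 CPM and then 1606, 1672 and 1528 CPM. The other 8 PSA genes ran from -0.58 for PSAN, on the lumenal side, to -0.26 for PSAD1, on the stromal side.

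Of the PSB genes, which here encode the oxygen-evolving proteins and small membrane subunits of photosystem II, 6 of 9 had libraries that did not overlap, and the median was -0.46. PSBO1 (AT5G66570), the main manganese-stabilising protein gene, was at 3716, 4412 and 3868 CPM in KCl and at 2754, 3355 and 2592 CPM in KNO3 (-0.46 ± 0.20, adjusted p = 0.208). PSBR (AT1G79040), the highest PSB gene per kilobase, was at 2086, 2642 and 2441 CPM and then at 1952, 2099 and 1854 CPM, which overlapped (-0.28 ± 0.19, adjusted p = 0.436). PSBQ2 differed by -0.56 ± 0.17 (adjusted p = 0.0812) and PSBO2 by -0.67 ± 0.22 (adjusted p = 0.103). PSBP1 (-0.50 ± 0.19), PSBX (-0.43 ± 0.16) and PSBW (-0.41 ± 0.18) did not overlap either, while PSBQ1 (-0.48 ± 0.19) and PSBY (-0.30 ± 0.16) did. The role medians thus ran from -0.54 to -0.37, while the single-gene test was passed by LHCB1.2 alone. The authors' deposited table had 11 members lower and 0 higher at the same threshold, with 4.23% and 4.69% of its genes called lower and higher. Those 11 were LHCB1.2, LHCB1.3, LHCB2.3, RBCS1B, PSAE2, PSAK, PSBO1, PSBO2, PSBP1, PSBQ2 and PSBX. The call on LHCB1.2 was lost without replicate 3 of wild type in KCl (adjusted p = 0.0802), without replicate 3 of every group (adjusted p = 0.1) and in 5 other leave-one-out fits. No member was called in these 6 of 9 leave-one-out fits or without replicate 3 of every group. Without replicate 2 of wild type in KNO3 11 were called, where 6.02% of all genes were lower.

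**Figure D3:**
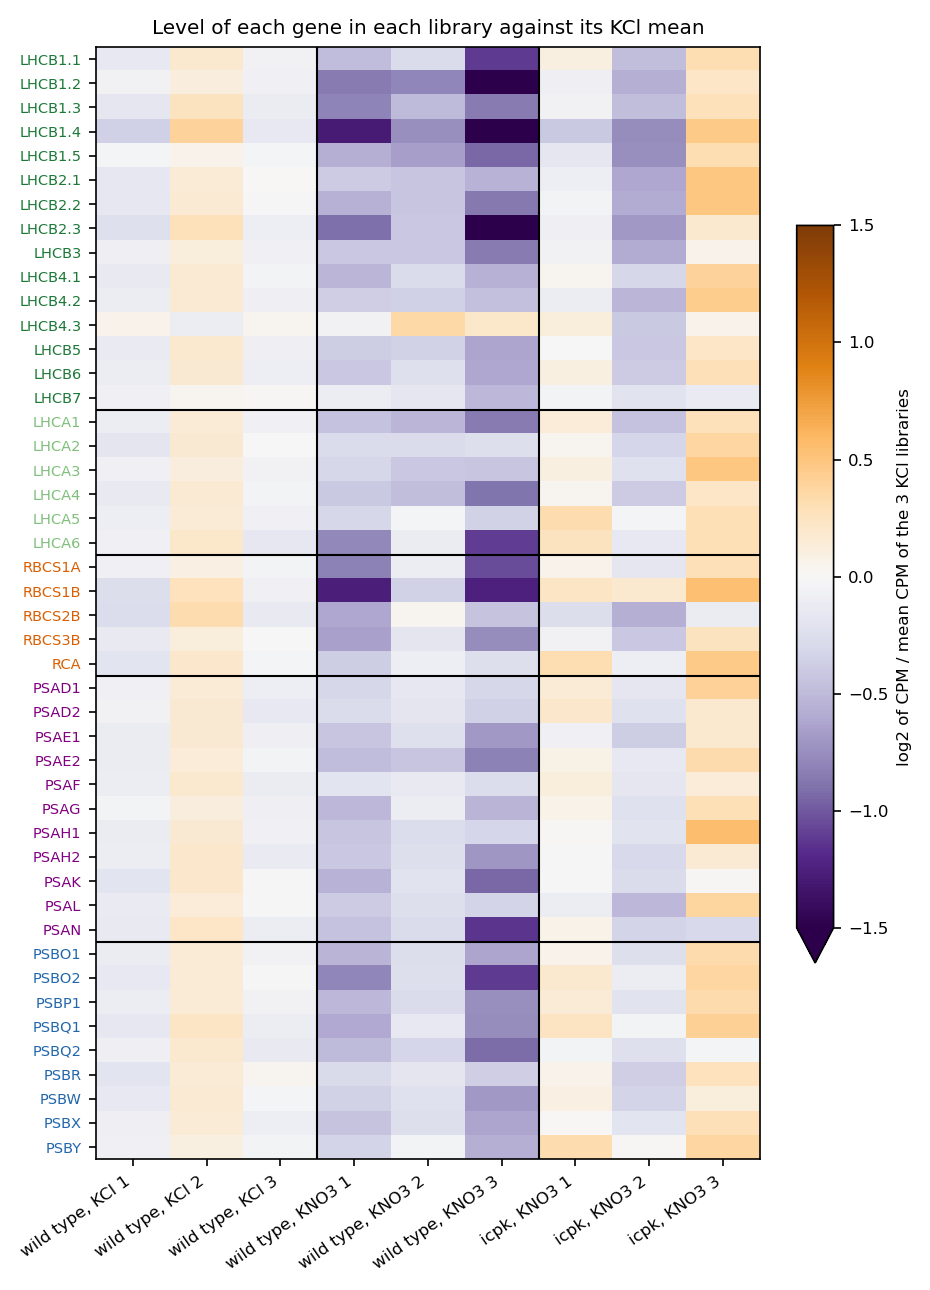
Log2 level of each of the 46 genes (rows, by role) in each of the 9 libraries (columns) relative to the gene's mean in wild type in KCl with the colour scale clipped at its low end. Replicate 3 of wild type in KNO3 is the lowest column, with a median of -0.69, and replicate 2 of icpk, at -0.31, is lower than the other icpk columns.

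The second comparison asked how the members stood in icpk against wild type, both in KNO3. They were higher in icpk almost throughout: 45 of 46 had a positive fold change, with a median of 0.47 against 0.01 over all genes tested. The test was passed by 9 members (19.6%), all higher, where 11.3% of all genes rose and 11.4% fell. With a replicate block over the 6 KNO3 libraries it was passed by 2, where 9.66% of all genes rose and 11.8% fell. DESeq2 called 25 higher and 0 lower, where it called 11.7% of all genes higher and 12.3% lower. All 3 icpk libraries were above all 3 wild-type libraries for 15 of 46 members, against 19.8% of all genes. At an unadjusted p below 0.05 there were 31 members, all higher, against 18.4% of all genes higher at that level. Both comparisons use the same wild-type KNO3 libraries, so a low or high value in those libraries enters both with opposite sign.

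Among LHCB genes LHCB1.2 rose, and the median of the 15 was 0.51. It was at 1599, 1674 and 966 CPM in wild type and at 2729, 1953 and 3352 CPM in icpk, with no overlap, a fold change of 0.92 ± 0.25 (adjusted p = 0.0243) and a ratio of 1.89. LHCB1.3 was at 10647, 7953 and 13303 CPM in icpk, above the wild-type libraries by a small margin in replicate 2 (0.66 ± 0.25, adjusted p = 0.0849). LHCB1.4 had the larger fold change, 1.14 ± 0.38, but its icpk libraries at 1066, 831 and 1932 CPM overlapped wild type (adjusted p = 0.0526). LHCB4.3 had the only negative value of the set, -0.24 ± 0.15 (adjusted p = 0.277), at 40.6, 28.1 and 38.7 CPM. LHCB7 (AT1G76570) was at 10.3, 9.75 and 7.72 CPM in wild type and at 10.7, 9.52 and 10.1 CPM in icpk, and its groups overlapped (0.12 ± 0.13, adjusted p = 0.538). The other 10 LHCB genes lay between 0.37 for LHCB3 and 0.78 for LHCB2.3, and all of them overlapped wild type.

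LHCA5 and LHCA6, the low-abundance members of the photosystem I antenna that are known to link it to the chloroplast NADH dehydrogenase-like complex, rose in icpk. LHCA5 (AT1G45474) was at 66.7, 81.3 and 65.2 CPM in wild type and at 103, 80.7 and 102 CPM in icpk, 1.34 times higher on the fitted scale (0.42 ± 0.13, adjusted p = 0.037). LHCA6 (AT1G19150) was at 37.2, 59.2 and 29.7 CPM and then at 76.2, 57.5 and 78.2 CPM, 1.68 times higher (0.75 ± 0.22, adjusted p = 0.0361). In both genes replicate 2 of icpk lay below replicate 2 of wild type, so the groups overlapped although the test was passed. LHCA4, the most abundant member, was at 2975, 2205 and 3371 CPM in icpk. Its libraries did not overlap with wild type, and its fold change was 0.55 ± 0.20 (adjusted p = 0.0782). LHCA3 did not overlap either (0.54 ± 0.18, adjusted p = 0.0595), while LHCA1 (0.61 ± 0.20, adjusted p = 0.0533) and LHCA2 (0.32 ± 0.19, adjusted p = 0.259) did.

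RBCS1B had the largest fold change of the set. It was at 277, 523 and 281 CPM in wild type and at 781, 754 and 972 CPM in icpk, so that the lowest icpk library was above the highest wild-type library (1.21 ± 0.25, adjusted p = 0.00794, 2.32 times higher). Its neighbour RBCS2B was level between the groups, at 735, 1161 and 831 CPM and then 945, 757 and 1039 CPM (0.01 ± 0.22, adjusted p = 0.987). RBCS1A was at 15604, 13407 and 18467 CPM in icpk, and replicate 2 of icpk was below the highest wild-type library (0.67 ± 0.28, adjusted p = 0.116). RBCS3B was at 4177, 3262 and 5164 CPM in icpk and also overlapped (0.46 ± 0.22, adjusted p = 0.171). RCA was at 3766, 4627 and 4153 CPM in wild type and at 6096, 4644 and 6759 CPM in icpk, which did not overlap, by a narrow margin in replicate 2 (0.48 ± 0.21, adjusted p = 0.12).

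PSAE2 was the single PSA gene that rose. It went from 196, 204 and 156 CPM in wild type to 290.2, 249 and 348 CPM in icpk without overlap, 1.59 times higher (0.67 ± 0.15, adjusted p = 0.0109). The median of the 11 PSA genes was 0.40. PSAG was at 1718, 1419.5 and 2022 CPM in icpk (0.43 ± 0.18, adjusted p = 0.109) and PSAF at 1995, 1633 and 2014 CPM (0.23 ± 0.15, adjusted p = 0.311), and both overlapped wild type. PSAH1, which helps antenna complexes to dock on photosystem I, was at 220.1, 246 and 237 CPM in wild type and 299, 256 and 435 CPM in icpk without overlap (0.49 ± 0.18, adjusted p = 0.0697), and the other 7 PSA genes ran from 0.29 to 0.45 with overlap.

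Of the 9 PSB genes 4 rose, 7 had libraries that did not overlap, and the median was 0.53. Those that rose were PSBO2, PSBP1 and PSBQ1, of the oxygen-evolving proteins, and PSBY, a small membrane subunit. PSBO2 (AT3G50820) went from 569.8, 831 and 452 CPM to 1114, 918 and 1273 CPM, 1.78 times higher and without overlap (0.83 ± 0.22, adjusted p = 0.0213). PSBQ1 (AT4G21280) went from 559.5, 773 and 507 CPM to 1006, 829 and 1134 CPM, also without overlap (0.69 ± 0.19, adjusted p = 0.0275).

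The remaining pair changed by about the same amount. PSBP1 (AT1G06680) went from 1893, 2221 and 1604 CPM to 2980.0, 2328 and 3387 CPM (0.60 ± 0.19, adjusted p = 0.0457), and PSBY (AT1G67740) from 749, 917 and 638 CPM to 1183, 956 and 1219 CPM (0.54 ± 0.16, adjusted p = 0.0362). In both, replicate 2 of icpk was only just above the highest wild-type library. PSBO1 was at 4163, 3391 and 5048 CPM in icpk, a little above its wild-type libraries in replicate 2 (0.53 ± 0.20, adjusted p = 0.0781). PSBX (0.48 ± 0.16, adjusted p = 0.0599) and PSBQ2 (0.46 ± 0.17, adjusted p = 0.0712) did not overlap either, while PSBW (0.38 ± 0.18) and PSBR (0.28 ± 0.19) did. The authors' deposited table had 22 members higher in icpk and 0 lower, with 11.5% and 11.4% of its genes called higher and lower. There RBCS1B had a fold change of 1.06 (adjusted p = 6.36e-06) and PSAE2 of 0.63 (adjusted p = 0.000137).

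RBCS1B and PSAE2 kept their calls in each of the 9 leave-one-out fits. The number of members called ranged from 2 to 25 over those fits. It was 25 without replicate 2 of icpk, where 9.26% of all genes were higher. It was 16 without replicate 2 of wild type in KNO3, where 11.5% were. It was 2 without replicate 1 or 3 of wild type in KNO3 or of icpk, 5 without replicate 3 of wild type in KCl, and 0 without replicate 3 of every group. With replicate number as a block over 9 libraries 7 members were called, LHCA5 and PSBP1 having lost the call, and with the block over the 6 KNO3 libraries the called members were RBCS1B and PSAE2.

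Set against wild type in KCl, the icpk seedlings in KNO3 showed no called difference in any member. The test was passed by 0 of 46, with 0 at an unadjusted p below 0.05 and 0 by DESeq2, while 3.15% of all genes were called higher and 3.84% lower. The median was 0.01, with 25 members higher and 21 lower, and the fold changes ran from -0.30 for RBCS2B to 0.32 for RBCS1B. This split rested on single libraries: it was 42 higher and 4 lower without replicate 2 of icpk, 7 and 39 without replicate 3 of icpk, 39 and 7 without replicate 2 of wild type in KCl, and 6 and 40 without replicate 3 of every group. The libraries of the groups overlapped for all 46, where 14.1% of all genes were higher and 13.6% lower without overlap. Genotype and salt both differ between these groups, standard errors ran from 0.126 to 0.375, and a p that misses the threshold does not show equal levels.

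The replicates of a group differed in a way that many members shared. In icpk replicate 2 was the lowest library for 46 of 46 members and replicate 3 the highest for 41. In wild type in KNO3 replicate 3 was the lowest for 38 and replicate 2 the highest for 38, and in KCl replicate 2 was the highest for 45. The median library level relative to the KCl mean was -0.11, 0.17 and -0.06 in KCl, -0.44, -0.24 and -0.69 in wild type in KNO3, and 0.05, -0.31 and 0.30 in icpk. Replicate 2 of icpk thus lay lower than replicate 2 of wild type in KNO3. The median coefficient of variation of members was 10.7% in KCl, 14.8% in wild type in KNO3 and 19.4% in icpk, against 8.43%, 9.06% and 10.2% for the 12888 genes with a mean of at least 10.1 CPM.

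Ratios between copies of a family are given as a description, with RBCS1B over RBCS2B in full because its groups did not overlap. These ratios were picked out with the values seen and divide levels within a library, so that a shift common to both genes drops out. RBCS1B counts per RBCS2B count were 0.596, 0.568 and 0.623 in KCl, 0.377, 0.45 and 0.338 in wild type in KNO3, and 0.827, 0.996 and 0.935 in icpk. The ratio was lower in KNO3 in wild type in every library (0.648 of the KCl mean) and higher in icpk than in either wild-type group (2.38 times wild type in KNO3 and 1.54 times KCl). With 3 against 3 the smallest two-sided p of an exact permutation test is 0.1, which each of the 3 contrasts reached, so no ratio could pass the threshold, and over 17 ratios the adjusted values were 0.34 for nitrate and 0.213 for icpk. The pair shares windows of 50 bases, and its separate levels rest on the reads that could be placed.

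**Figure D4:**
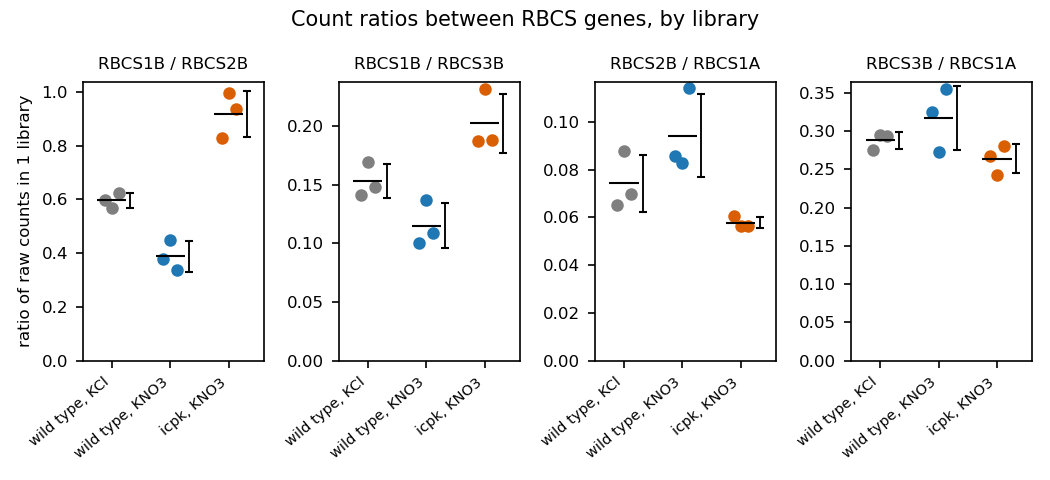
Ratios of RBCS copies within each library (vertical axis) for the 3 groups, each point a library, with the group mean as a line and its SD as a bar. For RBCS1B over RBCS2B the groups do not overlap, at 0.568 to 0.623 in wild type in KCl, 0.338 to 0.45 in wild type in KNO3 and 0.827 to 0.996 in icpk.

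RBCS2B was also set against RBCS1A, which is nearly free of shared windows. The RBCS2B to RBCS1A ratio was 0.065, 0.0877 and 0.0698 in KCl, 0.0859, 0.0826 and 0.114 in wild type in KNO3 and 0.0606, 0.0565 and 0.0563 in icpk, lower in every icpk library than in wild type in KNO3 (0.619 of it), while the wild-type groups overlapped. As a share of all RBCS counts, RBCS1B made up 3.13% in KCl, 2.49% in wild type in KNO3 and 3.86% in icpk, and RBCS2B 5.27%, 6.49% and 4.2%. RBCS1A held 71.1%, 69.1% and 72.8%. Over the 17 ratios, 4 were lower and 1 higher without overlap in nitrate against KCl, and 6 were higher and 2 lower in icpk against wild type, and the other 12 and 9 overlapped.

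Sums over whole roles also shifted slightly against each other. The PSA to PSB ratio was 0.731, 0.73 and 0.709 in KCl, 0.767, 0.74 and 0.789 in wild type in KNO3 and 0.692, 0.692 and 0.681 in icpk, with no overlap between any groups. The LHCB to PSB ratio was 2.38, 2.46 and 2.35 in KCl and 2.16, 2.03 and 2.03 in wild type in KNO3, without overlap. In icpk it was 2.15, 1.94 and 2.39, which overlapped both. The LHCB to LHCA ratio was lower in both KNO3 groups than in KCl without overlap. The LHCA to PSA ratio overlapped between all groups. The RCA to RBCS ratio overlapped too, except that it was higher in icpk than in KCl. Where the counts of copies within a family were summed before the fit, only PSBQ1 with PSBQ2 passed the test among the summed families (icpk 0.58 ± 0.19, adjusted p = 0.0474). PSBQ1 and PSBQ2 share no 50-base window, so that sum does not bear on reads lost between copies. Among sums of copies that do share windows, that of LHCB1.1 to LHCB1.3 differed by -0.74 in nitrate and 0.69 in icpk, neither past the threshold.

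Other genes of the photosynthetic apparatus, taken from lists by pathway, showed like directions. These lists too were chosen with earlier results of these data known. Over all genes tested 2.39% fell and 3.56% rose in nitrate, and 11.3% rose and 11.4% fell in icpk. In icpk 47.1% of the electron transport genes and 60% of the Calvin cycle genes rose. Of 17 electron transport genes 0 were called in nitrate by edgeR, 4 by DESeq2 and 10 at an unadjusted p below 0.05, with a median of -0.47, and 8 rose in icpk, with a median of 0.53. These included PSB28 and PSB27, photosystem II assembly factors, at 1.16 ± 0.23 (adjusted p = 0.00747) and 0.87 (adjusted p = 0.0162), the ATP synthase subunit gene ATPD at 0.72 and the plastocyanin gene PETE1 at 0.58. Of 15 Calvin cycle genes 0 were called in nitrate by edgeR, 2 by DESeq2 and 8 at an unadjusted p below 0.05 (median -0.46), and 9 rose in icpk (median 0.68), among them RPI3, FBA1, PGK1 and the regulator gene CP12-2 with fold changes of 0.86, 0.92, 0.71 and 0.88. These counts depended on single libraries: in the leave-one-out fits the icpk calls ran from 1 to 13 for electron transport and from 0 to 14 for the Calvin cycle, and without replicate 3 of every group they were 0 in both lists. With the replicate block over the 6 KNO3 libraries 1 electron transport and 2 Calvin cycle genes were called. The nitrate counts of 0 became 0 to 8 lower for electron transport and 0 to 11 for the Calvin cycle in the leave-one-out fits, and the block over the 6 wild-type libraries called 7 in each.

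Chlorophyll synthesis genes held more calls in both comparisons. Of 16, 4 fell in nitrate (25% against 2.39% of all genes, median -0.58). In icpk 13 rose (81.2% against 11.3%, median 0.82). PORB, a light-dependent protochlorophyllide reductase, was at 505, 538 and 365 CPM in KCl, 240.1, 321 and 265 CPM in wild type in KNO3 and 568, 561 and 775 CPM in icpk. It was lower in all KNO3 wild-type libraries than in either other group, by -0.77 ± 0.19 in nitrate (adjusted p = 0.0367) and 1.2 ± 0.19 in icpk (adjusted p = 0.00242). GUN4, an activator of magnesium chelatase, was at -0.60 ± 0.13 (adjusted p = 0.0251) and 0.73 ± 0.13 (adjusted p = 0.00491). CAO, which makes chlorophyll b, was at -0.67 ± 0.16 (adjusted p = 0.04) and 1.05 ± 0.16 (adjusted p = 0.0025), and GSA2, of early tetrapyrrole synthesis, at -0.59 ± 0.15 (adjusted p = 0.0457) and 1.04 ± 0.15 (adjusted p = 0.00172). CHLI2, a magnesium chelatase subunit gene, rose by 0.93 ± 0.15 in icpk (adjusted p = 0.00281). PORA, named for its place in the plot of the lists, was near 0 in wild type in KNO3, at 0.323, 0 and 0.0659 CPM, and at 1.04, 1.16 and 7.4 CPM in icpk. The leave-one-out fits gave 0 to 11 lower in nitrate and 9 to 16 higher in icpk, and without replicate 3 of every group 1 was lower in nitrate and 4 higher in icpk. PORB, CAO and GSA2 missed the threshold in nitrate with a replicate block over 9 libraries (adjusted p = 0.0554, 0.0554 and 0.0619).

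Among 13 regulators of these genes 1 fell in nitrate (7.69% against 2.39% of all genes, median -0.20) and 6 rose in icpk (46.2% against 11.3%, median 0.41). Their signs were mixed in nitrate, 7 lower and 6 higher, and in icpk 11 were higher and 2 lower. GLK2, a transcription factor known to activate LHCB and chlorophyll synthesis genes, was at 51.6, 46.1 and 45.3 CPM in KCl, 24.4, 26.3 and 29.9 CPM in wild type in KNO3 and 50.1, 47.5 and 74.9 CPM in icpk. The wild-type KNO3 libraries did not overlap with either other group, at -0.83 ± 0.17 (adjusted p = 0.0147) and 1.1 ± 0.16 (adjusted p = 0.00197). Its homologue GLK1 was at 33.3, 30.2 and 25.5 CPM, 34.4, 33.0 and 51.8 CPM and 29.6, 30.6 and 35.6 CPM, with opposite signs that did not pass the test (0.41 ± 0.17, adjusted p = 0.204, and -0.31 ± 0.17, adjusted p = 0.213). HY5, a light-signalling factor, was level, at 17.2 ± 3.52, 18.6 ± 2.71 and 18.7 ± 3.42 CPM. The plastid sigma factor genes SIG4, SIG6 and SIG2 rose in icpk by 1.25 ± 0.23, 0.81 ± 0.12 and 0.79. GLK2 and these SIG genes kept their icpk calls without replicate 3 of every group and in each of the 9 leave-one-out fits. The nitrate call on GLK2 was lost in 2 of 9, without replicate 1 in KCl and without replicate 1 of wild type in KNO3 (highest adjusted p = 0.0746). The list's counts over these fits were 0 to 4 lower in nitrate and 4 to 7 higher in icpk, and without replicate 3 of every group 4 were higher in icpk.

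Of 16 genes listed for antenna import and protection, with chlorophyll breakdown genes among them, 1 fell in nitrate (6.25% against 2.39% of all genes, median -0.29). In icpk 11 rose (68.8% against 11.3%, median 0.57). In sign, 12 were lower and 4 higher in nitrate, and 13 were higher and 3 lower in icpk. LTD, which guides antenna proteins to the thylakoid insertion pathway, fell by 0.58 ± 0.14 on the log2 scale in nitrate (adjusted p = 0.0415) and rose by 0.77 ± 0.14 in icpk (adjusted p = 0.00505). NYC1, a chlorophyll b reductase, rose in icpk by 0.74, the import receptor gene TOC159 by 0.59 and the thylakoid kinase gene STN8 by 0.77. NYC1 was also higher in icpk in KNO3 than in wild type in KCl, by 0.64 (adjusted p = 0.0203). The nitrate call on LTD was lost in 7 of the 9 leave-one-out fits. The icpk count was 5 to 11 in those fits and 2 without replicate 3 of every group, and LTD missed the threshold in nitrate with the replicate block over 9 libraries (adjusted p = 0.064).

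**Figure D5:**
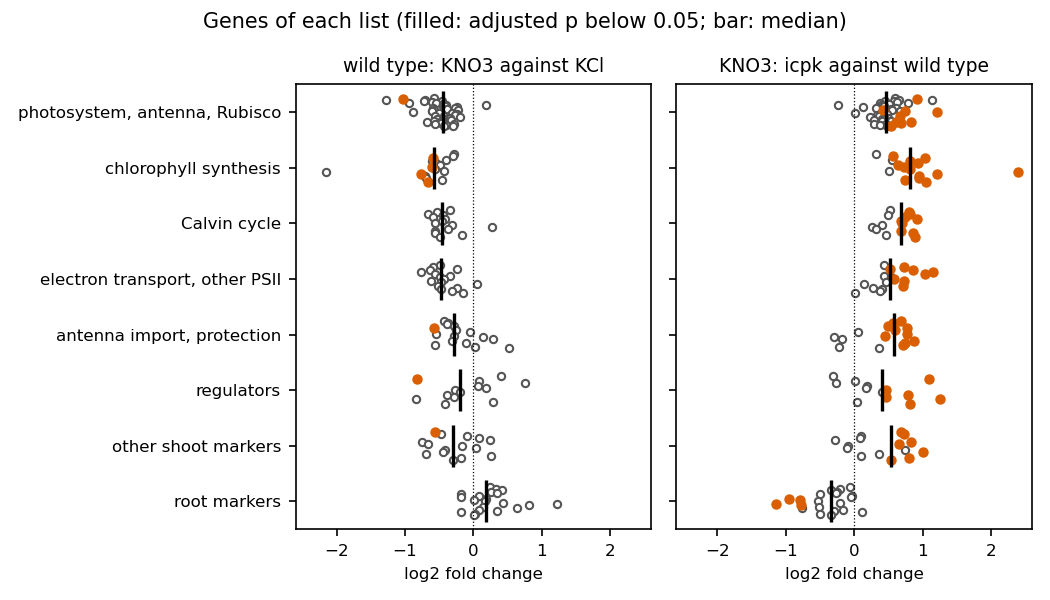
Log2 fold change (horizontal axis) of every tested gene of each list and of the 46 genes, for wild type KNO3 against KCl and for icpk against wild type in KNO3, with the median as a bar and filled symbols where the adjusted p is below 0.05. PORA in icpk is drawn at the edge of the scale, and the medians of the photosynthesis lists lie below 0 in the first comparison and above 0 in the second.

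Because whole seedlings were sampled, markers of root and of shoot tissue other than photosynthesis were measured beside the members. Of 22 root markers 21 were tested: 0 were called in nitrate by edgeR, 2 by DESeq2 and 4 at an unadjusted p below 0.05 (median 0.18). In icpk 4 were lower (19% of those tested against 11.4% of all genes, median -0.34), PLT1, PLT2, RSL4 and EXPA7. The summed level of the root markers was 235.2 to 295.8 CPM in KCl, 266.8 to 385.3 CPM in wild type in KNO3 and 214.7 to 291.1 CPM in icpk, and the ranges overlapped. Of 16 shoot markers 15 were tested: 1 fell in nitrate (FIL, -0.56 ± 0.12, adjusted p = 0.0256), 6.67% against 2.39% of all genes, with a median of -0.30. In icpk 7 rose (46.7% against 11.3%, median 0.54), among them KCS6 by 0.80, YAB3 by 0.72 and ML1 by 0.54. The summed level of the shoot markers was 471.6 to 545.9 CPM in KCl, 414.4 to 468.6 CPM in wild type in KNO3 and 604.9 to 832 CPM in icpk. No groups overlapped, by a narrow margin between KCl and wild type in KNO3. The calls depended on single libraries: in the leave-one-out fits 0 to 4 root markers were lower and 4 to 8 shoot markers higher in icpk, and the FIL call in nitrate was lost in 4 of 9, without replicate 1, 2 or 3 in KCl or replicate 1 of wild type in KNO3. Without replicate 3 of every group 0 root and 2 shoot markers were called in icpk, and with the replicate block over the 6 KNO3 libraries 1 and 6. Of the 21 root markers tested, 18 were higher and 3 lower in sign in nitrate, and 1 was higher and 20 lower in icpk. Of the 15 shoot markers tested, 11 were lower and 4 higher in sign in nitrate, and 12 were higher and 3 lower in icpk. KCS6, a cuticular wax gene, made up much of the shoot sum, at 259 ± 24.4, 228 ± 21.9 and 398 ± 86.2 CPM in the same group order. With KCS6 taken out, the shoot sums of KCl and icpk overlapped, and those of wild type in KNO3 stayed below both. The part of tissue markers in the members' differences was not tested.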

How the data were processed

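RNA was sequenced from pooled Arabidopsis seedlings for 50 cycles with an unstranded kit, per the labels' protocols. TopHat, HTSeq, DESeq2 and the build TAIR10 are named in the submitters' processing notes, without versions. The deposited values used here are HTSeq counts per gene for 9 libraries, with 32678 gene rows and 5 summary rows. The summary rows held 26.7% to 84.3% of records and were left out of library sizes. The authors' deposited tables of comparisons give mean signal (normalized counts), log2 fold changes with standard errors, a test score and p-values, of which fold changes, standard errors and adjusted p-values are quoted and always named as theirs.

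The counts were fitted with edgeR 4.0.16 in R 4.3.3: TMM scaling, filterByExpr with a minimum count of 10, 1 mean per group over all 9 libraries and the quasi-likelihood test, with Benjamini-Hochberg adjustment over 20288 genes. The common biological coefficient of variation was 15.1%, and standard errors were taken from the fold change and the F statistic. The test was tried on simulated counts first. Alternatives were other scaling, no filter, DESeq2 1.42.0, limma 3.58.1 with voom, fewer libraries, each library left out, a replicate block and summed copies. Depth differed by library, so that members with few counts, such as LHCB7, carry more counting error.

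Sequences, lengths and positions were read by locus tag from the RefSeq annotation of TAIR10.1, which matched all 46 members, while the files' build is named TAIR10. Members and lists were chosen with earlier results of these data known. All 46 members may be named; every member called has its values in each library, and up to 4 called genes of each other list, by smallest p, are named with GLK1, GLK2, HY5 and the CPK genes. No label says that a replicate number marks a shared day or batch. The sample records of replicate 3 of every group are numbered as a separate, later set than those of the other replicates. Whether replicate 3 was grown or sequenced apart from them is not stated and was not tested. For icpk against wild type in KNO3 same-numbered libraries deviated together with correlations of 0.131 to 0.367 over 18079 genes, against -0.26 to 0.102 for others. For nitrate the ranges overlapped, at -0.0311 to 0.345 and -0.363 to 0.218. Replicate 3 gave the highest value in both, 0.367 and 0.345. The main fit has no block, and counts with a block are given beside it.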

Additional observations from a re-analysis of the deposited data

How the results depend on the processing

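For nitrate, and for icpk against wild type in KNO3, the signs were stable and the calls were not. In every alternative 45 of 46 members were lower in nitrate and 43 to 45 were higher in icpk, and the median fold changes of the set moved by less than the spread between replicates. For members called lower in nitrate (1 in the report) the count was 3 with no filter, 12 with DESeq2, 3 with voom, 3 with the 6 libraries of the comparison, 0 without replicate 3 of every group, 0 with copies summed and 0 to 11 over the leave-one-out fits. The share of all genes called lower was 2.1% with no filter, 3.99% with DESeq2, 2.77% with voom and 1.91% with 6 libraries. For members called higher in icpk (9 in the report) the count was 25 with DESeq2, 15 with voom, 4 with 6 libraries, 0 without replicate 3 of every group, 5 with copies summed and 2 to 25 over the leave-one-out fits. Of all genes 11.7% were called higher with DESeq2, 11.7% with voom and 8.54% with 6 libraries.

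The replicate block over 9 libraries gave 1 called member in nitrate, RBCS1B in place of LHCB1.2, and 7 in icpk. Over 6 libraries it gave 15 and 2, where 4.71% of all genes were lower in nitrate and 9.66% higher in icpk. Same-numbered libraries deviated together in icpk and not clearly in nitrate, and the labels state no pairing.

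For nitrate no member changed sign, and for icpk against wild type in KNO3 the members that did were near 0. LHCB7 was at -0.0054 without replicate 3 of every group. RBCS2B was at -0.00285 with 6 libraries, -0.17 without replicate 3 of every group, and between -0.12 and 0.22 over the leave-one-out fits. For icpk against wild type in KCl the calls stayed at 0 in every alternative, while the members higher ran from 6 to 42 of 46. The cause of these shifts was not tested.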
